A study of Homo sapiens with 18 samples.

Results

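MOLM-13, a human acute monocytic leukaemia cell line, was compared after 24 h and after 4 h of dTRIM24. Each time had 3 libraries, so 6 of the series' 18 libraries carry the comparison. dTRIM24 is a degrader, in which a ligand of the TRIM24 bromodomain is linked to a ligand of VHL. VHL is the part of a ubiquitin ligase that picks its substrates, and the link brings TRIM24 to it for destruction by the proteasome. The same line given IACS-9571 (the bromodomain ligand of TRIM24 and BRPF1, without a VHL ligand) or DMSO (the solvent) for 24 h or 4 h gives the values set beside it. The cells carried no further labelled alteration, and no source used here states the doses. For each gene and group the deposited table gives 1 FPKM value, the mean of 3 libraries. A mean has no spread, so no difference here has an error, a test or a p-value, and a mean set by 1 library cannot be told from one shared by all 3. The labels do not say whether the libraries came from separate cultures.

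Genes were kept where either time of dTRIM24 reached 1 FPKM, and 11202 of 23621 gene rows did. Of these, 10943 rows belong to genes whose RNA normally carries a poly(A) tail (the poly(A) class), and 259 of 1821 named rows to RNAs that lack one. All differences are of log2(FPKM + 1), 24 h minus 4 h, a scale that understates the difference of low genes. A gene is called past 2-fold where this difference reaches 1 in size. For scale, 25 ERCC spike-in RNAs differed between the times of dTRIM24 by a median of -0.01 with an SD of 0.19, which is a spread of single RNAs between means and no replicate error. All 10 marker genes fixed for the line, FLT3, MEIS1 and SPI1 among them, were kept. Of the markers of T cells (6), megakaryocytes (5) and stroma (5) none was kept, and of the B cell list 1 of 5 was (PAX5), of the erythroid list 1 of 6 (EPOR) and of the epithelial list 2 of 5 (KRT8 and KRT18).

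TRIM24 is a chromatin reader and transcriptional co-regulator whose bromodomain binds acetylated histone tails. Cholesterol synthesis supplies the largest named group of poly(A) genes past 2-fold below. It is switched by SREBP transcription factors that are released from the endoplasmic reticulum when membrane sterol is low. INSIG proteins hold these factors there when membrane sterol is high. Replication-dependent histone mRNAs end in a stem-loop in place of a poly(A) tail, and small nucleolar RNAs, RNase P RNA and RNase MRP RNA also lack a tail, so their yield in a library depends on how RNA was selected and recovered as well as on their amount in the cell.

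The level of most genes of the poly(A) class differed little between the times. The median difference was 0.05, the quartiles were -0.06 and 0.16, and 98.9% lay within 0.5. Only 14 of 10943 passed 2-fold (0.128%), 5 higher (0.0457%) and 9 lower (0.0822%) at 24 h. Of the 9 lower genes 8 belong to the list of cholesterol synthesis genes and SREBP targets. In RNAs without a tail, 190 of 259 passed 2-fold (73.4%), 47 higher (18.1%) and 143 lower (55.2%), though 123 of the 259 were below 1 FPKM at one of the times, and 50 of the 143 are replication-dependent histone genes. In bulk RNA, fewer cells of a kind and less RNA per cell cannot be told apart.

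**Figure D1:**
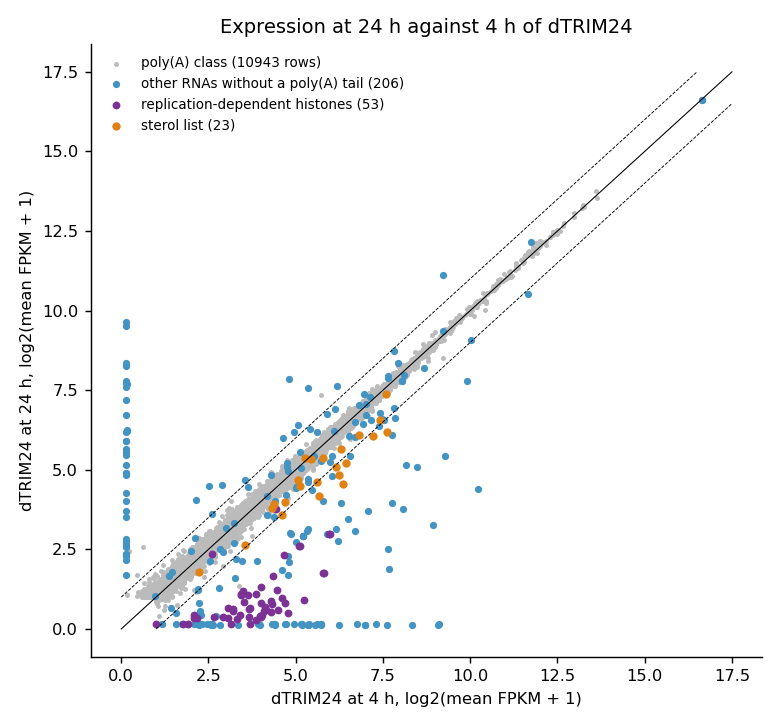
Mean FPKM at 24 h (vertical) against 4 h (horizontal) of dTRIM24, both as log2(FPKM + 1), 1 point per row kept; the solid line marks equal values and the dashed lines 2-fold. The 10943 poly(A) rows lie along the solid line, 22 of the 23 sterol genes sit below it, and the 53 histone rows lie below the lower dashed line with 3 exceptions.

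Of the compounds' targets and their relatives, VHL had the largest difference in mRNA level between the times. TRIM24 had 17.2 FPKM at 24 h and 17.3 FPKM at 4 h of dTRIM24, a difference of -0.01. TRIM28 and TRIM33, its closest relatives and corepressors, had differences of 0.22 and -0.04, and BRPF1, a scaffold of the MOZ acetyltransferase complex and the second target of IACS-9571, had 0.30. After a trend of the differences with the GC content of transcripts (the GC trend) was taken out, these were 0.01 for TRIM28, 0.02 for TRIM33 and 0.15 for BRPF1, beside 0.01 for TRIM24 and 0.44 for VHL. VHL had 13.9 FPKM at 24 h and 9.72 FPKM at 4 h, a difference of 0.48, against -0.18 with IACS-9571 and -0.30 with DMSO. None of the 5 passed 2-fold. A degrader acts on protein, so TRIM24 mRNA does not check the labels.

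Sterol synthesis genes were lower at 24 h than at 4 h of dTRIM24. Of 25 listed cholesterol synthesis genes and SREBP targets 23 were kept, 22 of these had a negative difference, 8 passed 2-fold lower and none passed 2-fold higher. Their median difference was -0.72, beside 0.05 over the poly(A) class. HMGCS1, which makes HMG-CoA for the mevalonate pathway, had 22.4 FPKM at 24 h and 81.1 FPKM at 4 h of dTRIM24, a difference of -1.81. MVK, the mevalonate kinase, had 10.98 FPKM at 24 h and 23.2 FPKM at 4 h (-1.01), and IDI1, the isomerase that makes the reactive isoprenoid unit, 65.9 FPKM at 24 h and 146 FPKM at 4 h (-1.14).

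Some genes of the later, sterol-forming steps were lower by similar amounts, but others, LSS among them, did not reach 1.5-fold. Of the 23 kept members of the list, 15 passed 1.5-fold lower. SQLE, the squalene epoxidase and a second control point of the pathway, had 27.7 FPKM at 24 h and 75.1 FPKM at 4 h of dTRIM24 (-1.41). CYP51A1, the lanosterol demethylase, had 35.95 FPKM at 24 h and 86.2 FPKM at 4 h (-1.24). MSMO1, the methylsterol oxidase that acts after it, had 17.2 FPKM at 24 h and 49.3 FPKM at 4 h (-1.47). INSIG1, the sterol-regulated protein that retains SREBP in the endoplasmic reticulum, had 72.1 FPKM at 24 h and 196 FPKM at 4 h (-1.43), so a brake of the pathway was lower together with its enzymes. Just short of 2-fold were DHCR7, the last reductase of cholesterol synthesis (-0.98), STARD4, a cytosolic sterol carrier (-0.92), and FDFT1, the squalene synthase (-0.84). SC5D was not matched by that symbol, and a row under its older symbol SC5DL, outside the list, had 6.56 FPKM at 24 h and 12.5 FPKM at 4 h (-0.84).

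The members differed widely among themselves. The smallest differences in size were those of SREBF2, which encodes the SREBP that drives the pathway (39.7 FPKM at 24 h and 42.1 FPKM at 4 h, -0.08), and of PMVK, the phosphomevalonate kinase and the single member with a positive difference (40.4 FPKM at 24 h and 37.8 FPKM at 4 h, 0.09). FDPS, the farnesyl diphosphate synthase, had -0.20. Once the trend of the differences on the GC content of transcripts was removed, the median of the list was -0.79 and the difference of PMVK -0.07.

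**Figure D2:**
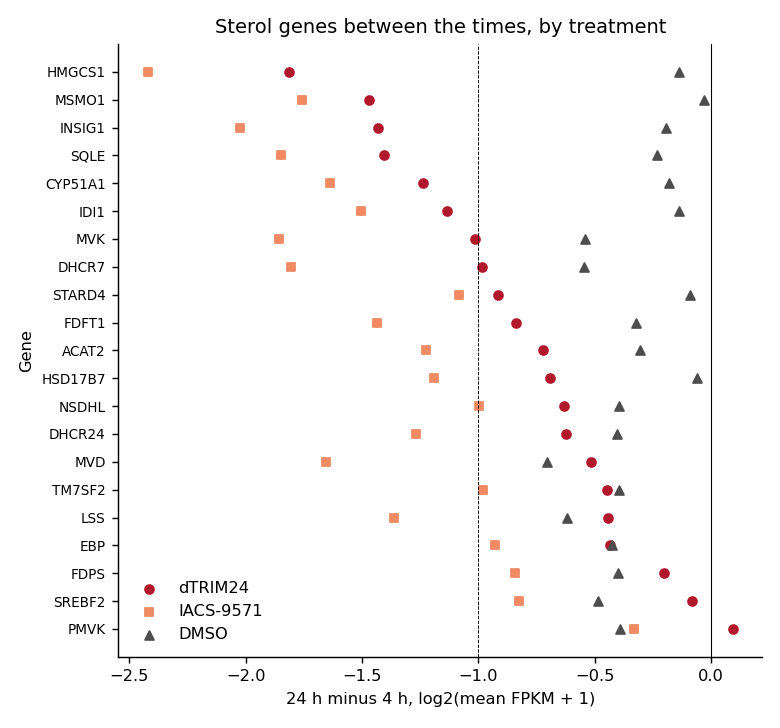
Difference of log2(mean FPKM + 1), 24 h minus 4 h, for 21 of the 23 kept sterol genes with dTRIM24 (circles), IACS-9571 (squares) and DMSO (triangles); the dashed line marks 2-fold lower. The dTRIM24 points run from -1.81 for HMGCS1 to 0.09 for PMVK, and every IACS-9571 point shown lies left of the dTRIM24 point of its gene.

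The same genes were also lower at 24 h with IACS-9571, by more, and with DMSO, by less in 18 of the 23. With IACS-9571 the median of the 23 genes was -1.36, 17 passed 2-fold lower, and the difference was lower than with dTRIM24 in 23 of 23. HMGCS1 had 19.3 FPKM at 24 h and 108 FPKM at 4 h of IACS-9571 (-2.42), and 18.7 FPKM at 24 h and 20.7 FPKM at 4 h of DMSO (-0.14). INSIG1 had 55.0 FPKM at 24 h and 226 FPKM at 4 h of IACS-9571 (-2.02), and 53.03 FPKM at 24 h and 60.9 FPKM at 4 h of DMSO (-0.20). With DMSO all 23 had a negative difference, the median of the list was -0.35, none passed 2-fold, and over the poly(A) class the median was -0.22. The poly(A) medians themselves differed, at 0.05 with dTRIM24 and -0.26 with IACS-9571, so part of the gap between the compounds is shared by all genes. Over the whole poly(A) class 37 genes passed 2-fold lower (0.338%) and 1 higher (0.00914%) with IACS-9571, and 6 lower (0.0548%) and 7 higher (0.064%) with DMSO. No test of these gaps was possible with means.

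Set against DMSO at the same time, the sterol genes stood close to it at 24 h. At 24 h the median of dTRIM24 minus DMSO was 0.33 over the 23 genes (0.26 over the poly(A) class), all 23 lay above DMSO (from 0.07 to 0.76) and none passed 2-fold. At 4 h the median of dTRIM24 minus DMSO was 0.81 (-0.01 over the poly(A) class), 22 lay above DMSO and 10 passed 2-fold. Of the 23 genes 18 stood higher above DMSO at 4 h than at 24 h. The exceptions were MVD (0.73 above DMSO at 24 h and 0.54 at 4 h), LSS (0.76 and 0.58), SREBF2 (0.51 and 0.10), FDPS (0.32 and 0.12) and PMVK (0.35 at 24 h and -0.13, below DMSO, at 4 h).

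Fatty acid genes, many of them driven by the related SREBP encoded by SREBF1, differed less and not all one way. None of 11 kept members passed 2-fold and the median was -0.26. SCD, the stearoyl-CoA desaturase, had 367 FPKM at 24 h and 590 FPKM at 4 h of dTRIM24 (-0.68), and FADS1, a fatty acid desaturase, 16.3 FPKM at 24 h and 26.6 FPKM at 4 h (-0.68). These 2 passed 1.5-fold lower and none passed it higher. SREBF1 itself had 33.5 FPKM at 24 h and 23.6 FPKM at 4 h (0.49, or 0.29 with the GC trend taken out), against -0.41 with IACS-9571 and -0.61 with DMSO. Such a turn of sign is common here. Of 10943 poly(A) genes 6755 were above 0 with dTRIM24, while 10623 were below 0 with IACS-9571 and 10450 with DMSO. ELOVL5, a fatty acid elongase, had -0.38 and ACSS2, the cytosolic acetyl-CoA synthetase, -0.35. In the list of sterol efflux genes and targets of the liver X receptors, 5 of 8 were kept and the median was 0.04. MYLIP, a ubiquitin ligase induced by liver X receptors, was farthest out there, with 13.3 FPKM at 24 h and 9.02 FPKM at 4 h (0.52).

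Promoters of the 3 sterol genes with the largest differences among those with a RefSeq window follow, to show what lies before their starts. Each is the 250 bases before the start on the GRCh38.p14 build (HMGCS1 at chr5:43313413-43313662, minus strand, the first of 2 windows; MSMO1 at chr4:165327419-165327668, plus strand; INSIG1 at chr7:155297628-155297877, plus strand). Capitals mark the letters CCAAT and TATAA on either strand, found by search.
HMGCS1: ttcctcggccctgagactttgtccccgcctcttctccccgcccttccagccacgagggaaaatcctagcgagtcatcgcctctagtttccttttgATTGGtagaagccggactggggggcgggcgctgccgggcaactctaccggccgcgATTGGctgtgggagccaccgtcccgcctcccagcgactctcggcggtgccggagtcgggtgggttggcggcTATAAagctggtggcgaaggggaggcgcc
MSMO1: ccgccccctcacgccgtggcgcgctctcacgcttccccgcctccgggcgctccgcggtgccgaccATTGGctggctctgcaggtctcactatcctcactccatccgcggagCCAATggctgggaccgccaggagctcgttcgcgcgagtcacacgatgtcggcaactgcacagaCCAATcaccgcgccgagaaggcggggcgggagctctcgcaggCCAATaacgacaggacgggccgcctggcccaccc
INSIG1: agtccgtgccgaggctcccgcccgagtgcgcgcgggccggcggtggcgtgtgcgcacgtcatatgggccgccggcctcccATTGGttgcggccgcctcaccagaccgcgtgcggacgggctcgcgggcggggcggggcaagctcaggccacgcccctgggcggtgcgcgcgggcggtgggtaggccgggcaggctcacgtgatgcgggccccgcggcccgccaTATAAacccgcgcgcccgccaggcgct

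CCAAT, the motif bound by the factor NF-Y, a known partner of SREBP at sterol promoters, was searched over the 300 bases from 250 before to 50 after each start. It was found in 15 of the 17 kept sterol genes that have a RefSeq window (88.2%) and in 39.7% of all 27305 genes with one. TATAA was found in 3 of the 17 (17.6%) and in 24.2% of all genes. The letters TCACNCCAC, a core of the sterol regulatory element, were found in 1 of the 17 (5.88%) and in 1.39% of all genes, and no motif overlapped another in the 3 promoters shown. The matches describe the letters in these windows and are no measurement of binding.

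The 6 other calls of the poly(A) class are rows that may share reads with a neighbour or copy, which was not tested, and are uncertain. EEF1E1-MUTED, a read-through of 2 neighbouring genes, had 1.55 FPKM at 24 h and 9.43 FPKM at 4 h of dTRIM24 (-2.03). Summed with EEF1E1 and BLOC1S5, the genes it joins, the difference was 0.17. INO80B-WBP1, another read-through, had 2.24 FPKM at 24 h and 0.36 FPKM at 4 h (1.25), and -0.09 when summed with INO80B and WBP1. EIF3CL, a near copy of the initiation factor gene EIF3C, had 4.51 FPKM at 24 h and 0.16 FPKM at 4 h (2.25), and 0.19 when summed with EIF3C. SRGAP2B, a partial copy of SRGAP2, had 4.999 FPKM at 24 h and 0.53 FPKM at 4 h (1.97), and 0.25 when summed with SRGAP2 and SRGAP2C. None of these 4 sums passed 2-fold. Each sum is made up mostly of the partner genes, with EIF3C alone at 260 FPKM at 24 h and 232 FPKM at 4 h. A sum therefore says little about its smaller row and does not show that reads moved between rows. PCNA-AS1, antisense to the replication clamp gene PCNA, had 4.31 FPKM at 24 h and 0.11 FPKM at 4 h (2.25), and PCNA -0.05; no source used here states how strand was handled.

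H3F3A, which encodes the replication-independent histone H3.3 as H3F3B does, was the one highly expressed row past 2-fold higher. It had 163 FPKM at 24 h and 51.4 FPKM at 4 h of dTRIM24 (1.64). With DMSO it had 115 FPKM at 24 h and 27.2 FPKM at 4 h (2.04), and with IACS-9571 78.7 FPKM at 24 h and 85.3 FPKM at 4 h (-0.11). The difference was thus no smaller with the solvent than with dTRIM24. H3F3A has many processed copies that share its sequence, and H3F3B, at 196 FPKM at 24 h and 201 FPKM at 4 h of dTRIM24, had -0.03. Summed with H3F3B, the difference of H3F3A was 0.51.

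Apart from the list of sterol genes and that of histone variants (through H3F3A alone), no list of the poly(A) class had a member past 2-fold. Most list medians lay within 0.1 of the poly(A) median. Genes of MYC and ribosome biogenesis had the median 0.17 (18 of 25 above the poly(A) median), with NOP56, a core protein of C/D box particles, at 185 FPKM at 24 h and 145 FPKM at 4 h (0.35) and MYBBP1A, a nucleolar protein, at 31.9 FPKM at 24 h and 24.7 FPKM at 4 h (0.36). Immediate early genes had the median 0.21 (11 of 14 above the poly(A) median), with ZFP36, which promotes decay of AU-rich mRNAs, at 41.8 FPKM at 24 h and 30.4 FPKM at 4 h (0.44). With the GC trend taken out these medians were 0.04 and 0.06. Unfolded protein response genes had the median -0.11 and 13 of 16 below the poly(A) median, and -0.14 with the GC trend taken out. Farthest out was DNAJB9, a co-chaperone induced when misfolded protein builds up in the endoplasmic reticulum, at 7.99 FPKM at 24 h and 12.1 FPKM at 4 h (-0.54), followed by EDEM1, of the degradation of misfolded glycoproteins (-0.39).

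Cell cycle lists were close to the poly(A) median. The 28 S phase genes had the median 0.03, with the licensing factor CDT1 at 0.26 and CDC6 at -0.17. The 26 mitosis genes had the median 0.06, but CENPF and CENPE, large kinetochore proteins, had 28.8 FPKM at 24 h and 19.0 FPKM at 4 h (0.58) and 5.69 FPKM at 24 h and 3.60 FPKM at 4 h (0.54). With DMSO the same genes had -0.05 and 0.01, so both stood apart from the solvent as well. Among myeloid genes the granule proteins ELANE and AZU1 had 0.17 and 0.14, both -0.06 with the GC trend taken out. The granule proteoglycan SRGN had -0.38 and lysozyme (LYZ) -0.35. Of transcription factors, CEBPD had 15.98 FPKM at 24 h and 11.8 FPKM at 4 h (0.41; 0.14 with the GC trend taken out) and SPI1 75.5 FPKM at 24 h and 63.04 FPKM at 4 h (0.26; 0.04 with it taken out). HOXA9 and MEIS1, of the program of MLL-rearranged leukaemia, had 0.07 and 0.11. Among retinoic acid genes the receptor gene RARA had 11.2 FPKM at 24 h and 7.56 FPKM at 4 h (0.51; 0.31 with the GC trend taken out). Interferon response genes had the median 0.05, with IFI6 at 1.42 FPKM at 24 h and 0.71 FPKM at 4 h (0.50).

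The remaining lists, that of histone variants aside, held no member past 2-fold. Those with medians from 0.09 to 0.14 were the amino acid response driven by ATF4 (0.12, with DDIT3, a stress-induced transcription factor, at 0.48), retinoic acid genes (0.13), BET bromodomain and elongation genes (0.12, with BRD2 at 0.25), myeloid transcription factors (0.14), hypoxia and glycolysis genes (0.09, with the peptide hormone gene ADM at 0.46) and NF-kB genes (0.09, with the cytokine gene TNF at 0.43). TRIM24 family and BRPF1 complex genes had 0.10 and small nucleolar RNA host genes 0.09. The GC trend taken out, the medians of 4 of these lists turned negative, at -0.02 for ATF4, -0.03 for retinoic acid genes, -0.04 for NF-kB genes and -0.002 for hypoxia and glycolysis, and the others were 0.05 for BET bromodomain genes, 0.04 for myeloid transcription factors, 0.02 for the TRIM24 family and 0.06 for the host genes. From 0.02 to 0.07 lay the medians of genes for cytosolic ribosomal proteins (0.07), HOXA genes and MEIS1 (0.07), FLT3 and STAT5 signalling (0.07), the BCL2 family (0.06), p53 targets (0.04), the proteasome (0.04), oxidative phosphorylation (0.03), oxidative stress (0.02, with the haem oxygenase gene HMOX1 at 0.30), granule proteins (0.02) and housekeeping genes (0.02). Of these, FLT3 and STAT5 signalling, the BCL2 family and granule proteins were at -0.04, -0.04 and -0.08 with the GC trend taken out. Housekeeping genes were then at -0.06, oxidative phosphorylation at -0.01, cytosolic ribosomal proteins at -0.0002 and oxidative stress at -8.6e-05. Still positive were p53 targets (0.003), the proteasome (0.05) and HOXA genes and MEIS1 (0.06). At or under 0 were genes for aminoacyl-tRNA synthetases (0.00), heat shock proteins (-0.01), splicing factors (-0.02), the VHL ligase and HIF (-0.04), MHC class II (-0.05, with HLA-DRA at -0.29) and monocyte effectors (-0.09, with CD38 at -0.39).

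The differences with dTRIM24 followed transcript GC content, and in the opposite direction to those with the other treatments. Across 10144 genes of the poly(A) class Spearman's rho between the difference and GC content was 0.62 with dTRIM24, -0.44 with IACS-9571 and -0.73 with DMSO. In 10 bins of GC content the median difference ran from -0.09 in the lowest bin to 0.21 in the highest with dTRIM24. With IACS-9571 it ran from -0.20 to -0.39, and with DMSO from -0.12 to -0.49. Genes are not independent replicates, and the genes of 1 group share its libraries, so rho describes these means. Across genes the dTRIM24 and DMSO differences had rho -0.40, and 0.09 with the GC trends taken out. The dTRIM24 and IACS-9571 differences had rho -0.06, and 0.31 with the GC trends taken out. The part of GC content in the small list medians above was not tested beyond taking the trend out.

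**Figure D3:**
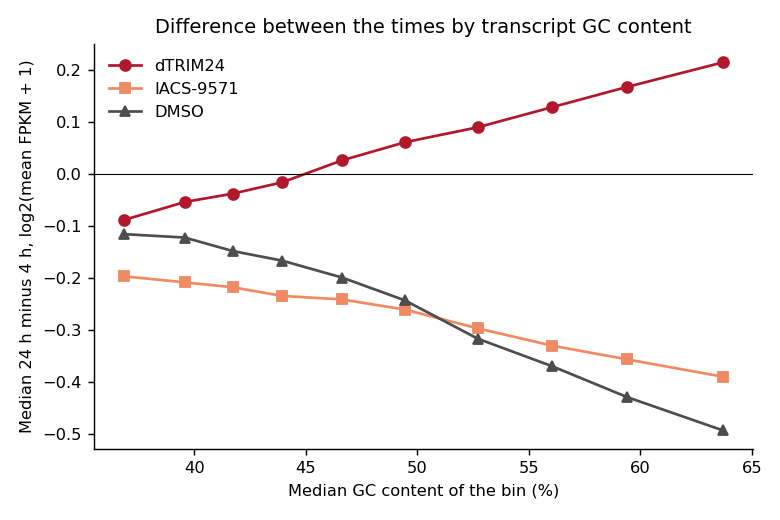
Median difference of log2(mean FPKM + 1), 24 h minus 4 h, against median GC content of the longest transcript, in 10 bins of poly(A) genes. The dTRIM24 line climbs from -0.09 to 0.21, while the IACS-9571 and DMSO lines lie below 0 and descend.

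The genes whose difference with dTRIM24 lay farthest from that with DMSO were again sterol genes on the lower side, and mostly low or overlapping rows on the upper side. Above, EPN1, an endocytic adaptor, had 33.1 FPKM at 24 h and 23.6 FPKM at 4 h of dTRIM24 (0.47), against 19.1 FPKM at 24 h and 32.6 FPKM at 4 h with DMSO (-0.74). NKD2, an antagonist of Wnt signalling, had 38.5 FPKM at 24 h and 28.6 FPKM at 4 h (0.41), against -0.74 with DMSO. UNCX, a homeobox gene, had 29.5 FPKM at 24 h and 18.7 FPKM at 4 h (0.63), against -0.56 with DMSO. Their dTRIM24 differences with the GC trend taken out were 0.38 for EPN1, 0.17 for NKD2 and 0.35 for UNCX. Their DMSO differences are given with the GC trend left in, so its part in each gap is not shown. HYPK, which overlaps the read-through row SERF2-C15ORF63, had 27.7 FPKM at 24 h and 24.6 FPKM at 4 h of dTRIM24 (0.17), and 4.49 FPKM at 24 h and 38.3 FPKM at 4 h of DMSO (-2.84), so its distance comes from the DMSO values. The others above were NME1-NME2, TPGS1, P2RY11 and LOC391322. Below were EEF1E1-MUTED, HMGCS1, MSMO1, INSIG1, SQLE, CYP51A1, SLX1A (a copy of SLX1B) and SERF2-C15ORF63.

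Replication-dependent histone genes, which supply the histones packed onto DNA during S phase, were lower at 24 h of dTRIM24 in every family. Of 72 rows 53 were kept, all 53 had a negative difference and 50 passed 2-fold lower, with a median of -2.96. Over all 72 rows, kept or not, the median was -2.55. Summed over all 72 rows they had 78.6 FPKM at 24 h and 920 FPKM at 4 h of dTRIM24, against 62.0 FPKM at 24 h and 97.6 FPKM at 4 h with IACS-9571 and 100.2 FPKM at 24 h and 75.3 FPKM at 4 h with DMSO. Over all 72 rows the highest of the 6 groups was dTRIM24 at 4 h in 56. At 24 h of dTRIM24, 36 of the 53 were below 1 FPKM, and none was at 4 h, so these 36 were kept through the 4 h value alone.

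The family medians were alike, at -3.12 for the linker histones H1 (4 kept), -2.53 for H2A (15), -2.74 for H2B (14), -3.03 for H3 (8) and -3.16 for H4 (12). HIST2H3A had 0.88 FPKM at 24 h and 36.8 FPKM at 4 h of dTRIM24 (-4.33), 0.32 FPKM at 24 h and 1.07 FPKM at 4 h with IACS-9571, and 1.797 FPKM at 24 h and 0.52 FPKM at 4 h with DMSO. HIST1H3B had 0.42 FPKM at 24 h and 26.2 FPKM at 4 h of dTRIM24 (-4.26), and HIST1H1B, a linker histone gene, 0.51 FPKM at 24 h and 21.4 FPKM at 4 h (-3.89). HIST2H4A and HIST2H4B, duplicate genes whose reads cannot be told apart, had 2.41 FPKM each at 24 h and 54.6 FPKM and 55.1 FPKM at 4 h. The kept rows not past 2-fold were HIST1H1D (-0.86), HIST1H2BK, at 12.5 FPKM at 24 h and 20.6 FPKM at 4 h (-0.67), and HIST2H2BC (-0.24).

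**Figure D4:**
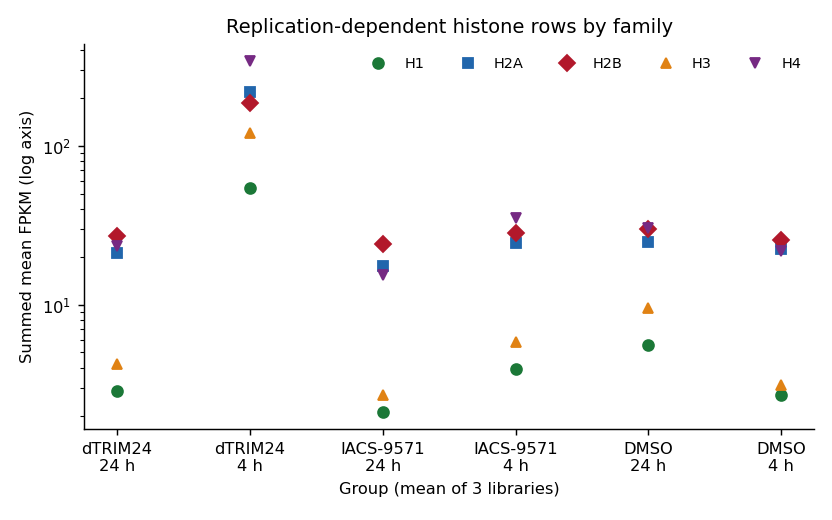
Summed mean FPKM of all histone rows of each family, kept or not (log axis) in the 6 groups, 1 point per family and group. The dTRIM24 4 h group is highest for all 5 families, and H4 there sums to 340 FPKM against 23.4 FPKM at 24 h.

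The genes that make and process these mRNAs did not share the difference. SLBP, the protein that binds the stem-loop, had 114 FPKM at 24 h and 117 FPKM at 4 h of dTRIM24 (-0.03), and NPAT, the coactivator of histone gene transcription, 7.74 FPKM at 24 h and 7.97 FPKM at 4 h (-0.04). None of the 13 genes of histone 3′ end processing passed 2-fold, and their median was -0.03. Histone variants whose mRNA carries a tail had the median 0.02 over 11 kept, with H2AFZ at 799 FPKM at 24 h and 839 FPKM at 4 h (-0.07). Of the 11, 1 passed 2-fold higher, H3F3A (1.64). Replication genes differed little, with PCNA at -0.05 and RRM2, a ribonucleotide reductase subunit, at -0.05.

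The stem-loop that replaces the tail is shown because it is what these histone mRNAs share. This hairpin was searched in the GENCODE v29 transcripts of the 53 kept genes and found in 22 (41.5%). The search took arms that pair perfectly, begin with GG and end with CC, and a loop that begins with TT. A transcript model that stops with the coding sequence cannot hold the stem-loop, so the count is a minimum. It was found in 73 of 10330 other kept genes (0.707%), and in 1 of 12 replication-independent histone genes, H2AFX, which is known to make both tailed and stem-loop mRNA. Capitals mark the 2 arms of the stem and lower case the loop, and the form of each is named by a gene that carries it.
HIST2H3A: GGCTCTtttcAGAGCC
HIST1H4E: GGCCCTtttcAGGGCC
HIST2H4B: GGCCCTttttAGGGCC
HIST1H2BF: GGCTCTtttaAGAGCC

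The first form was found in 12 genes, the second in 4, the third in 3 and the fourth in 3. HIST1H4E had a difference of -3.88 and HIST1H2BF of -3.59, but genes with either arm also had smaller differences. HIST2H2BE, with the first form, had -1.63, and HIST1H4H, with the second, -2.57. In HIST1H3B (-4.26) no stem-loop was found.

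Promoters of the histone genes with the largest differences among those with a RefSeq window follow, cut to the same 250 bases before the start (GRCh38.p14; HIST2H3A, now H3C15, at chr1:149852358-149852607, plus strand; HIST1H3B, now H3C2, at chr6:26032100-26032349, minus strand). Capitals again mark CCAAT and TATAA on either strand.
HIST2H3A: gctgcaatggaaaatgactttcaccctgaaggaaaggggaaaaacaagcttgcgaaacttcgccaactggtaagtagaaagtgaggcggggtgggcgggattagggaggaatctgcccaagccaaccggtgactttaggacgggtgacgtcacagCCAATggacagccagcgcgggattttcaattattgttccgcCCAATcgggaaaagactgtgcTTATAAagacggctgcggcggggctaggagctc
HIST1H3B: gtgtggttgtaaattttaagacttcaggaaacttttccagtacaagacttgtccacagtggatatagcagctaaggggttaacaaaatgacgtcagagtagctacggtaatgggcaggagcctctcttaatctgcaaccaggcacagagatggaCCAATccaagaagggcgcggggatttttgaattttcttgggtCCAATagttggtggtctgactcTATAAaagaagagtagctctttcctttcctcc

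Both carry a pair of CCAAT letters followed by TATAA near the start. Over the 300-base windows TATAA was found in 40 of the 43 kept histone genes with a window (93.0%) and CCAAT in 35 (81.4%), against 24.2% and 39.7% of all genes. In HIST2H3A the TATAA matches on the 2 strands overlap each other.

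RMRP and RPPH1, the RNA subunits of RNase MRP and RNase P, which process ribosomal and transfer RNA precursors, had the same order of groups with a wider gap. RMRP had 20.2 FPKM at 24 h and 1196 FPKM at 4 h of dTRIM24 (-5.82), 7.25 FPKM at 24 h and 26.2 FPKM at 4 h with IACS-9571 (-1.72), and 67.1 FPKM at 24 h and 12.7 FPKM at 4 h with DMSO (2.32). RPPH1 had 8.57 FPKM at 24 h and 493 FPKM at 4 h of dTRIM24 (-5.69), 1.95 FPKM at 24 h and 10.7 FPKM at 4 h with IACS-9571 (-1.99), and 23.5 FPKM at 24 h and 2.01 FPKM at 4 h with DMSO (3.02). Both were highest at 4 h of dTRIM24, and with DMSO the order of the times was turned round. The 11 kept genes of the RNase P and MRP proteins, whose mRNAs carry tails, had the median 0.13, or 0.03 once the GC trend was removed, and no member past 2-fold, with POP1 at 12.1 FPKM at 24 h and 10.7 FPKM at 4 h.

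Small nucleolar RNAs, which guide modification of ribosomal RNA, scattered widely. Over all rows, kept or not, the median was -0.08 over 105 H/ACA rows and -0.01 over 256 C/D box rows. Most C/D box rows were below 1 FPKM at both times, so their median says little about the detected ones. Of 76 kept H/ACA rows, guides of pseudouridylation, 37 passed 2-fold lower and 11 higher, with a median of -0.93, and 17 were below 1 FPKM at 24 h and 5 at 4 h. SNORA57 had 0.11 FPKM at 24 h and 108 FPKM at 4 h of dTRIM24, and SNORA76 0.11 FPKM at 24 h and 47.9 FPKM at 4 h. In the other direction SNORA55 had 21.7 FPKM at 24 h and 4.77 FPKM at 4 h. Of 55 kept C/D box rows, guides of ribose methylation, 21 passed 2-fold lower and 13 higher, with a median of -0.47, and 12 were below 1 FPKM at 24 h and 9 at 4 h. Many of these rows are copies of SNORD116, and some copies are listed with 1 shared value. SNORD62A and SNORD62B do so, as do SNORD116-5 and SNORD116-7, and SNORD116-17 and SNORD116-19. Such rows are not independent. SNORD47 had 0.10 FPKM at 24 h and 554 FPKM at 4 h, and SNORD104 802 FPKM at 24 h and 0.10 FPKM at 4 h. Values near 0.10 are the lowest of the table, and single rows stood there in one group and far above it in another. SNORD104 had 0.10 FPKM at 24 h and 180 FPKM at 4 h of DMSO, the opposite of its order with dTRIM24. The host genes of these RNAs, whose spliced transcripts carry tails, had the median 0.09 over 18, with SNHG12 at 12.5 FPKM at 24 h and 7.69 FPKM at 4 h (0.64).

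Small Cajal body RNAs, guides for spliceosomal RNA, were lower in 12 of 15 kept rows by over 2-fold and higher in 1, with a median of -1.75, and 11 of the 15 were kept through 4 h alone. Over all 24 rows the median was -1.10. SCARNA22 had 0.10 FPKM at 24 h and 30.0 FPKM at 4 h of dTRIM24, and SCARNA16 3.37 FPKM at 24 h and 13.7 FPKM at 4 h (-1.75). Of 4 kept spliceosomal RNAs, 3 of the minor spliceosome were lower: RNU11 had 11.9 FPKM at 24 h and 134 FPKM at 4 h (-3.38), RNU12 2.26 FPKM at 24 h and 26.4 FPKM at 4 h (-3.07), and RNU4ATAC 0.10 FPKM at 24 h and 19.0 FPKM at 4 h. The exception was RNU6ATAC, also of the minor spliceosome, at 5.21 FPKM at 24 h and 0.10 FPKM at 4 h. Over all 28 spliceosomal rows, kept or not, the median was -0.01, but most of them were below 1 FPKM at both times. All 7 kept SNAR rows, small RNAs made by RNA polymerase III from near-identical copies, passed 2-fold lower, but SNAR-A13, SNAR-A12, SNAR-A2 and SNAR-A1 are listed with 1 shared value, 6.52 FPKM at 24 h and 35.8 FPKM at 4 h of dTRIM24, and are not independent. Of the 7 SNAR rows 2 were kept through 4 h alone. Over all 22 SNAR rows the median was -0.01, but most of them were below 1 FPKM at both times. VTRNA1-3, a vault RNA, had 0.10 FPKM at 24 h and 74.0 FPKM at 4 h. RNA5SP244, a 5S ribosomal RNA pseudogene, had 98.1 FPKM at 24 h and 229 FPKM at 4 h (-1.22).

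MicroRNA loci held more kept rows past 2-fold higher than lower. Of 42 kept, 21 were higher and 8 lower, with a median of 1.03. Of the 42, 20 were below 1 FPKM at 4 h and 6 at 24 h. Over all 1299 rows the median was -0.01, which mostly reflects rows below 1 FPKM at both times. The name pattern also took 3 host genes, MIR155HG (0.29), MIR17HG (0.31) and MIR600HG (0.07), whose spliced transcripts carry tails, and without them the median of the other 39 was 1.37. A hairpin row does not measure the mature microRNA. MIR29C had 307 FPKM at 24 h and 0.10 FPKM at 4 h of dTRIM24, and MIR922 0.10 FPKM at 24 h and 536 FPKM at 4 h. Near the lowest value of the table (under 0.12 FPKM) were 6 of the 42 at 24 h and 18 at 4 h. Of the 13 with at least 5 FPKM at both times, 2 were higher and 1 lower. MIR1244-2 and MIR1244-3, copies of 1 hairpin and the highest rows of the class, had 100241 FPKM and 100478 FPKM at 24 h, and 102205 FPKM and 102450 FPKM at 4 h.

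**Figure D5:**
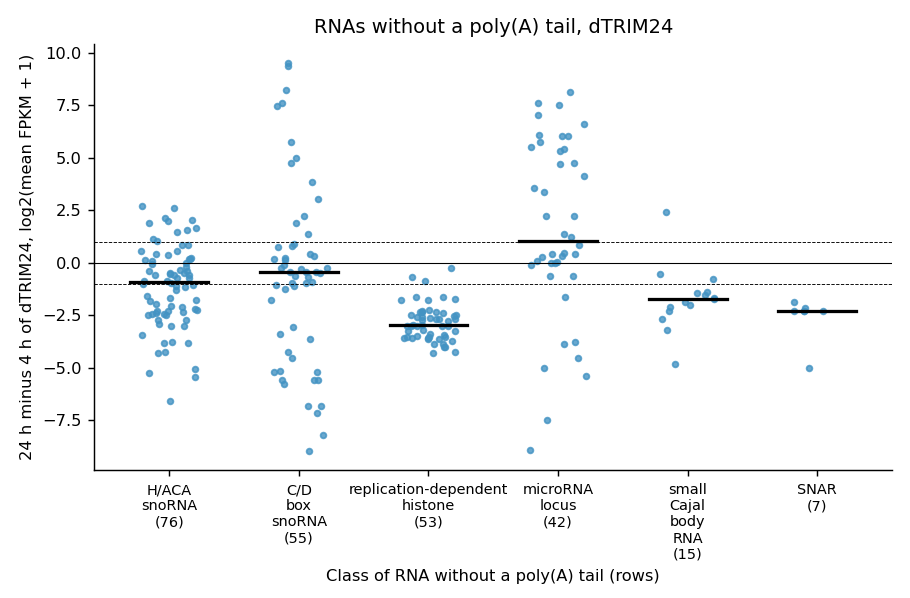
Difference of log2(mean FPKM + 1), 24 h minus 4 h of dTRIM24, for the kept rows of each class of RNA without a tail that has at least 7, 1 point per row; thick lines are class medians and dashed lines 2-fold. The histone points lie together with a median of -2.96, while the C/D box and microRNA points spread from below -8 to above 8.

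Many of these counts include low values. Of the 259 kept rows without a tail, 50 were under 0.12 FPKM at 24 h and 34 at 4 h, and 123 were below 1 FPKM at one of the times. Of the 102 with at least 5 FPKM at both times, 10 passed 2-fold higher and 36 lower, with a median of -0.55. Of these 102 rows 5 are histones, 4 of them lower. With DMSO 67 of the same rows passed 2-fold higher (25.9%) and 31 lower (12%), and with IACS-9571 47 higher (18.1%) and 53 lower (20.5%), which is 37.8% and 38.6% either way. The 259 rows were kept on their dTRIM24 values, which favours differences with dTRIM24, so these shares are not to be compared between treatments. Where a row was kept at 1 FPKM in any of the 6 groups, a choice made after seeing the data, 297 were, and with dTRIM24 47 passed 2-fold higher and 143 lower (64.0% either way), with IACS-9571 54 higher and 65 lower (40.1%), and with DMSO 81 higher and 36 lower (39.4%). In 155 of the 297 the highest group was dTRIM24 at 4 h, so this filter can favour it too. Over all 1821 rows the shares either way were 10.4% with dTRIM24, 6.53% with IACS-9571 and 6.43% with DMSO. How much of the difference in tail-less RNAs reflects recovery or selection of RNA in the libraries of dTRIM24 at 4 h was not tested.

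The nuclear RNAs MALAT1 and NEAT1, long transcripts kept at speckles and paraspeckles, differed in opposite directions. MALAT1, whose end is a triple helix instead of a tail, had 1.39 FPKM at 24 h and 3.58 FPKM at 4 h of dTRIM24 (-0.94), against 1.003 FPKM at 24 h and 1.05 FPKM at 4 h with IACS-9571 and 1.01 FPKM at 24 h and 0.91 FPKM at 4 h with DMSO. It was highest at 4 h of dTRIM24. NEAT1, whose short form carries a tail, had 3.32 FPKM at 24 h and 1.95 FPKM at 4 h of dTRIM24 (0.55), against -0.01 with DMSO. Neither passed 2-fold.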

How the data were processed

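Per the submitters' processing notes, the authors used TopHat2, Cuffnorm and hg19 to make the deposited FPKM values (fragments scaled to the transcript's length and the library's size). The table holds 1 mean per group of 3 libraries and no counts, so depth is unknown and its precision cannot be given; no source used here states versions, annotation, RNA selection or strand handling. The column totals were 978765 FPKM at 24 h and 971048 FPKM at 4 h of dTRIM24, and 771830 FPKM at 24 h and 987863 FPKM at 4 h of IACS-9571. They differ mainly at 24 h while spike-in medians match, so the values may have been scaled to the spike-ins. Part of the IACS-9571 gap lies in the hairpin rows MIR1244-2 (67749 FPKM at 24 h and 103989 FPKM at 4 h) and MIR1244-3 (68229 FPKM and 104454 FPKM). No value is 0 and the lowest lie near 0.1 FPKM, which looks like an added constant. Both points come from the values alone. Groups were taken from titles and time points; the treatment protocol in the labels gives 24 h for every sample.

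Spike-in rows (92 of 23713) were left out. Differences are of log2(FPKM + 1) over rows with at least 1 FPKM at either time, called at 2-fold. The members and lists were chosen with earlier results of these data known. RNAs lacking a tail were recognised by name, which also took 3 microRNA host genes. Some members of the sterol list are counted but not reported here by name. The first pattern for transfer RNAs caught TRNAU1AP, a protein gene, and was corrected. All 36 gene lists and 7 marker lists were described by counts and medians.

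Named were the 5 target genes; among poly(A) genes past 2-fold up to 12 in each direction, if the higher time reached 5 FPKM; RNAs without a tail by the same rule (up to 10 each way and 3 per class and direction); up to 5 members per list; and up to 8 genes each way farthest from the DMSO difference. INO80B-WBP1, EIF3CL, PCNA-AS1, SRGAP2B, the overlap partners, DHCR7, STARD4, FDFT1, SC5DL, SREBF2, PMVK, FDPS, HIST1H1D, HIST1H2BK, HIST2H2BC, HIST1H4E, HIST1H2BF, HIST2H2BE, HIST1H4H, HOXA9, MEIS1, H3F3B, SLBP, NPAT, PCNA, RRM2, SCARNA16, MIR1244-2, MIR1244-3, MIR155HG, MIR17HG, MIR600HG, MVD, LSS, MALAT1 and NEAT1 were chosen after their values were seen.

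Transcript GC content came from the longest GENCODE v29 transcript of each symbol (92.7% of poly(A) rows matched), and a cubic trend on it was taken out as an alternative. Promoter sequences are RefSeq's on GRCh38.p14, another build than the authors', and symbols were matched through RefSeq synonyms. Alternatives were a 1.5-fold threshold, scaling to the spike-ins, quantile normalization, centring on the median, pseudocounts of 0.1 and 0.5, no filter and a minimum of 5 FPKM. Scripts, tested on simulated data, used scipy 1.17.1, matplotlib 3.10.9, numpy 2.4.6 and pandas 2.3.3 (Python 3.11.15).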

Additional observations from a re-analysis of the deposited data

How the results depend on the processing

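Of the poly(A) class 5 genes were called higher and 9 lower at 24 h than at 4 h of dTRIM24, of them 8 sterol genes. A 1.5-fold threshold gave 32 higher and 34 lower, 15 of them in the sterol list. A pseudocount of 0.1 gave 22 higher and 18 lower, and one of 0.5 gave 8 higher and 14 lower. With at least 5 FPKM at either time 1 was higher. Among RNAs without a tail, leaving out rows near the lowest value, a choice made after seeing the data, gave 13 higher and 94 lower. Counting the microRNA host genes with the poly(A) class, or keeping rows at 1 FPKM in any of the 6 groups, also chosen after seeing the data, left the counts at 47 higher and 143 lower. Neither change could alter these counts. The host genes were not past 2-fold, and a row below 1 FPKM at both times of dTRIM24 cannot reach a difference of 1. For the same reason, using no filter could add no call in either class. Scaling to the spike-ins, quantile normalization, centring on the median, no filter and the GC trend taken out kept each of these counts within 1.5 times, and no named value turned its sign past the threshold. No paired analysis was possible because the table holds means only, and for the same reason no replicate could be left out. Depth is unknown, so no limit on low rows can be given.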
